A study of Mus musculus with 6 samples.

Results

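Apoe, Apoc1, Apoc2, Abca1, Abcg1, Mylip, Nr1h2, Nr1h3, Lpcat3 and Lpl are 10 mouse genes that carry lipoproteins, export sterols, or encode or answer to the sterol sensor LXR. They were taken by symbol, after their gene identifiers had been stripped of the version number, from 55487 genes in the deposited table of read counts. Enough reads for a test were present for 8 of them, among 13140 genes tested in all, and Apoc1 and Apoc2 were too low.

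The libraries came from macrophages grown from sorted mouse bone marrow cells, 3 from cells the labels call TpMos and 3 from mature Ly6Chi monocytes. Both kinds of cell were kept for 7 days in serum-containing medium with the growth factor CSF-1, for which the sources used here give no concentration by sample. The labels give no strain, genotype, sex, age, batch or number of animals, and they do not spell out TpMo. RNA with an integrity number above 7.9 went into SMART-seq v2 libraries, 2 ng for each, which amplify full-length cDNA and do not mark strand. TpMo-derived macrophages had 33042094, 27154105 and 23765773 counts on genes, and Ly6Chi-derived macrophages had 26804286, 27051518 and 31820999. A floor of 3 counts then equals 0.0908 to 0.126 CPM, which are counts divided by a library's total and scaled, and it covers counting error only. Whether the libraries of a group stem from separate cultures or animals is not stated. The p-values therefore speak of the spread among these 6 libraries alone, and that spread can be technical.

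LXR alpha and LXR beta are nuclear receptors that bind oxysterols, oxidised forms of cholesterol, and act on DNA together with a retinoid X receptor. In macrophages their known targets include the membrane exporters ABCA1 and ABCG1, which load cholesterol onto apolipoproteins and lipoprotein particles, the acceptor apolipoprotein E, and the ubiquitin ligase Mylip (also called Idol), which sends lipoprotein receptors for degradation. The Apoe gene lies beside Apoc1 and Apoc2 in a cluster of apolipoprotein genes, and distal enhancers of that cluster are known to drive it in macrophages and in liver.

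Of the 8 genes tested, 5 rose and 0 fell in TpMo-derived macrophages by edgeR's quasi-likelihood test, at an adjusted p under 0.05. Over all genes tested, 6.54% rose and 5.79% fell. At an unadjusted p under 0.05 there were also 5, and the share of all genes at that threshold is not given here. DESeq2 and limma-voom each gave 5 higher and 0 lower. Over all genes, DESeq2 gave 8.14% higher and 7.93% lower, and limma-voom gave 6.92% higher and 6.36% lower. In a test against a 1.5-fold change, 2 of the 8 rose, Apoe and Abca1, where 1.45% of all genes rose and 0.959% fell. The 5 were Apoe, Abca1, Abcg1, Mylip and Lpl, and their fold changes ran between 9.48 for Apoe and 1.55 for Lpl. The 2 receptor genes and Lpcat3 did not pass. In 6 of the 8 genes, every TpMo-derived library stood above every Ly6Chi-derived library, which held for 15.3% of all genes tested. The median log2 fold change of the 8 was 0.68, against 0.01 over all genes tested.

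**Figure D1:**
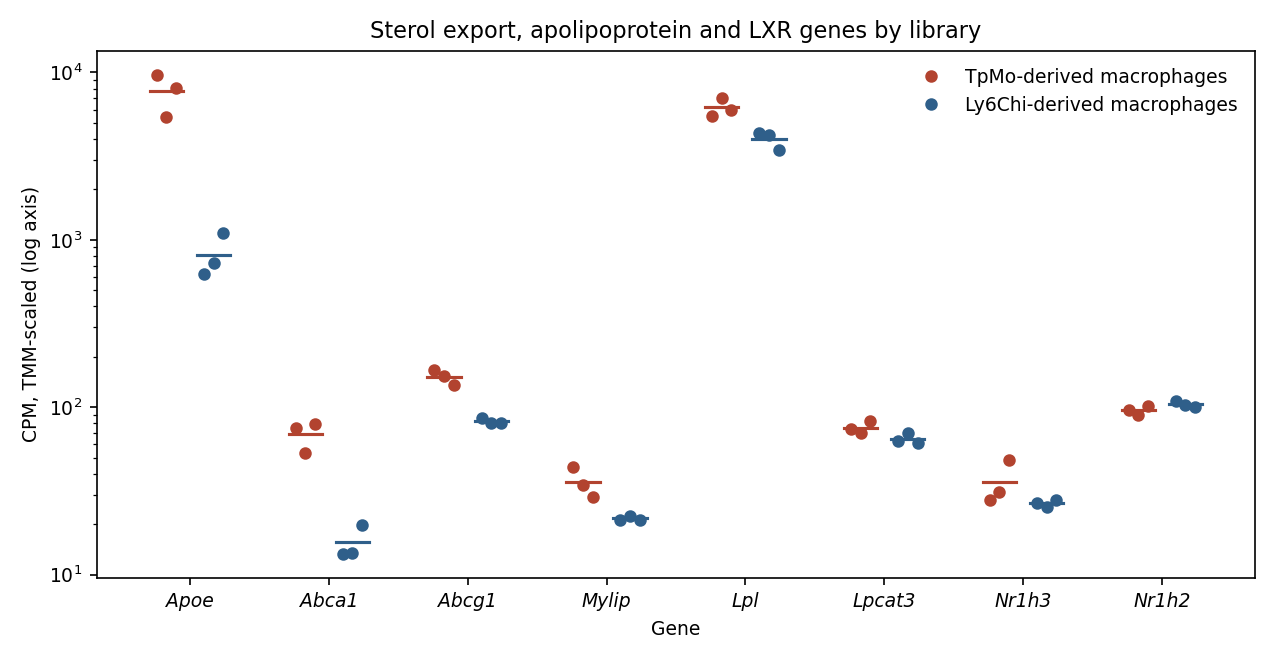
CPM of the 8 tested genes in each library (log axis), with TpMo-derived macrophages left of Ly6Chi-derived macrophages for each gene. Each point is 1 library and each bar is the mean of 3. For Apoe, Abca1, Abcg1, Mylip, Lpl and Lpcat3 the groups do not overlap, and for Nr1h3 and Nr1h2 they do.

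The promoters of 4 of these genes are shown, too few to compare genes that rose with genes that did not pass. They are Apoe, the gene with the largest fold change of the 8, Abca1 and Mylip, which also rose, and Nr1h2, a receptor gene that did not pass. Each runs 5′ to 3′ over positions -250 to 50 of a RefSeq start site on GRCm38.p6, and capitals mark the motif matches described below. Start sites were listed for 7 of the 10 genes, with 10 promoters in all. The table gives 3 for Apoe, of which the most upstream is printed.
Apoe, chr7:19699139-19699438, minus strand: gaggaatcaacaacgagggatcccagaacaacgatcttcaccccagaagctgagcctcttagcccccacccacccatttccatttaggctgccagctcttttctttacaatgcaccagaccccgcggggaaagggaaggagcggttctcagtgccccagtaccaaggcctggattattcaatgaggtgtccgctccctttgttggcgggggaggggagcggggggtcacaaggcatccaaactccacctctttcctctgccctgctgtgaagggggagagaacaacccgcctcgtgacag
Abca1, chr4:53159846-53160145, minus strand: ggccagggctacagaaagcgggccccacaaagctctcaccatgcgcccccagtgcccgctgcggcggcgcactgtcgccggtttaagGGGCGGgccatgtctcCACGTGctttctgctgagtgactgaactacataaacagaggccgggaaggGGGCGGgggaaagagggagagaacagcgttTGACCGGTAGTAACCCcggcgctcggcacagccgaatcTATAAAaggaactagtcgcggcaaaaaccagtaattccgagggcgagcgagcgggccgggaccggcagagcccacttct
Mylip, chr13:45389492-45389791, plus strand: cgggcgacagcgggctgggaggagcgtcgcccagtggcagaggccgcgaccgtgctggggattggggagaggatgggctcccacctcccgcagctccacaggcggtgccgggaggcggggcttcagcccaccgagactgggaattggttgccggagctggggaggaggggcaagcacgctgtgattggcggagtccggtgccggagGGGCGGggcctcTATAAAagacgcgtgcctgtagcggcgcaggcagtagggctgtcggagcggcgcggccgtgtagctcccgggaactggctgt
Nr1h2, chr7:44553916-44554215, minus strand: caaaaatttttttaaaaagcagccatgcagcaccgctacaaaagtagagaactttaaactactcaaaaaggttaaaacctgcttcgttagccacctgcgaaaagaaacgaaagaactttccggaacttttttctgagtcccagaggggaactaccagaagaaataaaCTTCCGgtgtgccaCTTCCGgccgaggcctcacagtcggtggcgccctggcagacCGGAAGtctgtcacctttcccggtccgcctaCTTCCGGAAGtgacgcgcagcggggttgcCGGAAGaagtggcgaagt

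The element that LXR and its partner are known to bind is a direct repeat with a 4-base spacer, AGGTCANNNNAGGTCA. On both strands and with at most 2 mismatches in its 12 fixed bases, it was found in 0 of the 10 promoters of these genes, and in 993 of 32851 promoters of the table (3.02%). With 3 mismatches allowed, 1 of the 10 held it, that of Abca1, against 21.9% of all promoters. The Abca1 match covers positions -67 to -52 from the start site, at chr4:53159947-53159962, and reads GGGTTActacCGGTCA on the plus strand of the chromosome, the reverse complement of the capitals printed, with 2 mismatches in its first half-site and 1 in its second. The other capitals mark short cores that were chosen after the sequences had been seen. The Abca1 promoter holds the TATA box core TATAAA at -29, the E-box CACGTG at -147, and the GC box core GGGCGG at 2 places. TATAAA stands at -32 and GGGCGG at -44 in the Mylip promoter. The Apoe promoter printed holds none of these cores, but another Apoe promoter holds 2 overlapping matches to TATAAA. Of genes that did not pass and are not printed, Lpcat3 holds 6 matches to GGGCGG, and the Nr1h3 promoters hold none of the cores. The Nr1h2 promoter holds 6 matches to the ETS core CGGAAG, counting both strands, with 1 pair overlapping. Among all promoters of the table, 13.6% hold TATAAA, 7.15% CACGTG, 35.7% GGGCGG and 16.9% CGGAAG. Of the 10 promoters of these genes, 3 hold TATAAA, 1 CACGTG, 3 GGGCGG and 2 CGGAAG. Among all promoters, 0.189% hold 4 or more matches to CGGAAG. That core was chosen with the sequences known, so this share is no test of Nr1h2. These are matches of letters in a short window and no measure of binding.

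Apolipoprotein E, the lipoprotein component that macrophages secrete and that lipoprotein receptors bind, differed more than any other of the 8. Apoe (ENSMUSG00000002985.16, chr7:19696109-19699188, minus strand, GRCm38) had 9698, 5402 and 8065 CPM in TpMo-derived macrophages, against 623, 725 and 1094 CPM in Ly6Chi-derived macrophages. The lowest TpMo-derived library was several times the highest Ly6Chi-derived one, and the spread within the groups was alike, with a coefficient of variation of 28.1% in TpMo-derived and 30.5% in Ly6Chi-derived macrophages. The log2 fold change was 3.25 ± 0.26 (SE, n = 3 each; edgeR adjusted p = 1.09e-04), or 9.48-fold with a 95% interval of 6.28 to 14.3. With 1 library left out at a time it ran between 3.05 and 3.51.

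Apoe was among the most abundant messages of the TpMo-derived libraries. Per length, in TPM (counts scaled for exon length and for the library), it reached 11943 ± 3353 in TpMo-derived macrophages and 1314 ± 377 in Ly6Chi-derived macrophages (SD, n = 3 each). By TPM it ranked 5, 12 and 9 among protein-coding genes in the TpMo-derived libraries, and 96, 86 and 52 in the Ly6Chi-derived ones. Apoe, Apoc1 and Apoc2 together took 0.956%, 0.536% and 0.782% of all counts on genes in TpMo-derived macrophages, against 0.0640%, 0.0733% and 0.111% in Ly6Chi-derived macrophages. Nearly all of this was Apoe. The groups did not overlap, and an exact permutation test of the difference of means, 0.675 percentage points, gave p = 0.1, the smallest it can give with 3 libraries against 3.

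The C apolipoproteins of the same cluster, which regulate lipases and the clearance of lipoproteins, were barely detected. Apoc1 (ENSMUSG00000040564.14, chr7:19689481-19692660) had 2, 0 and 4 counts in TpMo-derived macrophages and 0 in each Ly6Chi-derived library. Apoc2 (ENSMUSG00000002992.17, chr7:19671579-19677941), the activator of lipoprotein lipase, had 0 counts in each TpMo-derived library, and 1, 0 and 3 in Ly6Chi-derived macrophages. At such counts a difference between the groups was not detectable, and no fold is given. Gm44805, on the same strand (chr7:19671584-19681423), overlaps the span of Apoc2 and had no count. Reads on exons of both genes were not counted for either, so the counts of Apoc2 can understate its transcripts. How many reads were lost in this way was not tested.

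**Figure D2:**
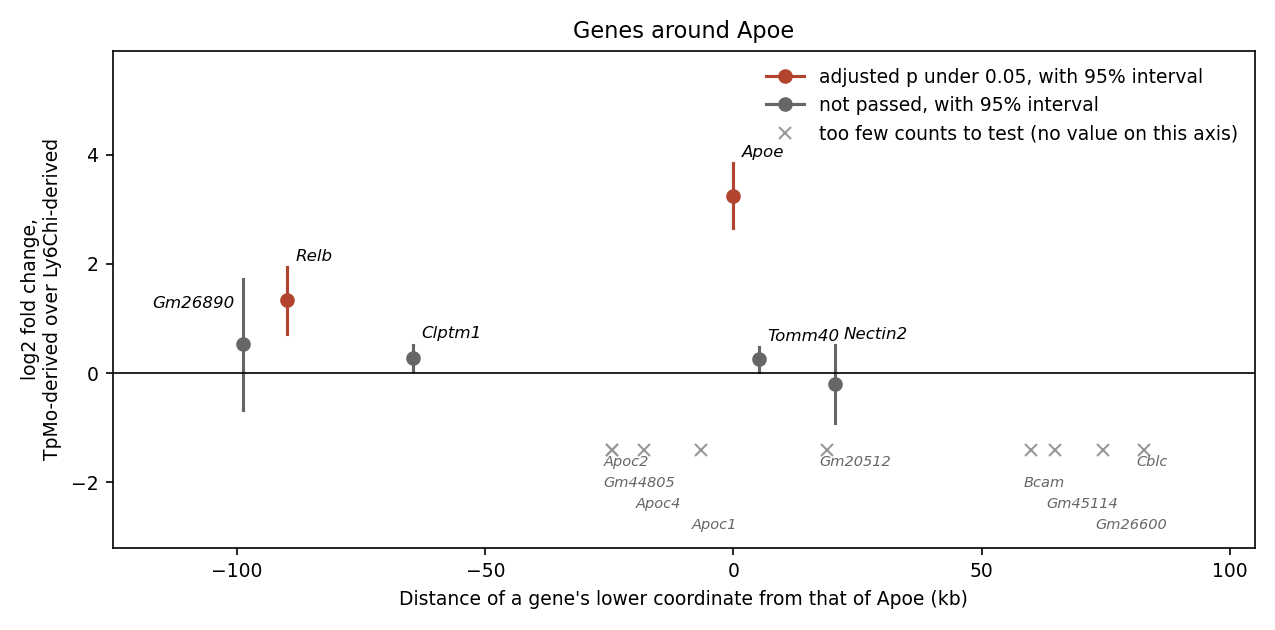
Log2 fold change (TpMo-derived over Ly6Chi-derived) with its 95% interval for genes within 100 kb of Apoe, by distance in kb between lower coordinates. Crosses are genes with too few counts to test and have no value on the vertical axis. Apoe stands at 3.25 and Relb at 1.33, and the other 4 tested genes did not pass.

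Within 100 kb of Apoe lie 14 other genes, of which 5 were tested and 6 had no count in any library. Relb, an NF-kB subunit 89.9 kb away, rose, with 34.1 ± 9.86 CPM in TpMo-derived and 13.6 ± 4.39 CPM in Ly6Chi-derived macrophages (SD, n = 3 each), which is a log2 difference of 1.33 ± 0.27 SE (edgeR adjusted p = 0.0105). Without Ly6Chi-derived replicate 1 or replicate 2 its adjusted p passed 0.05, up to 0.0597, with a log2 fold change between 1.07 and 1.62 over all libraries left out in turn. The nearest tested neighbour was Tomm40, a channel of the mitochondrial outer membrane, 5.2 kb away, with 129 ± 13.8 CPM in TpMo-derived and 109 ± 6.80 CPM in Ly6Chi-derived macrophages. Its log2 fold change was 0.25 (adjusted p = 0.166). Clptm1, Nectin2, an adhesion molecule, and Gm26890 did not pass either, at log2 fold changes of 0.28, -0.20 and 0.53. Apoc4, between Apoc1 and Apoc2, had no count, and Gm44805 overlaps its span too.

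Both exporters rose, Abca1 by more than Abcg1 in its estimate. Abca1 (ENSMUSG00000015243.4, chr4:53030787-53159895, minus strand) hands cholesterol and phospholipid to lipid-poor apolipoproteins. It had 74.9, 53.0 and 79.3 CPM in TpMo-derived macrophages, against 13.3, 13.5 and 19.8 CPM in Ly6Chi-derived macrophages. Every TpMo-derived library was well above every Ly6Chi-derived one. Abca1 rose by a log2 fold change of 2.15 ± 0.21 (SE, n = 3 each; edgeR adjusted p = 1.45e-04), or 4.44-fold with a 95% interval of 3.20 to 6.16.

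Abcg1 (ENSMUSG00000024030.7, chr17:31057675-31117988, plus strand) moves sterols toward mature lipoprotein particles. It had 166, 154 and 136 CPM in TpMo-derived macrophages, against 86.5, 80.8 and 79.99 CPM in Ly6Chi-derived macrophages. The Ly6Chi-derived libraries lay within a few CPM of each other and below every TpMo-derived one. Abcg1 rose by a log2 fold change of 0.88 ± 0.10 (SE, n = 3 each; edgeR adjusted p = 3.27e-04), or 1.84-fold with a 95% interval of 1.58 to 2.15.

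The balance of the exporters was set side by side within each library, per length, which does not depend on library scaling. The log2 ratio of Abca1 to Abcg1 was -1.65, -2.04 and -1.28 in TpMo-derived macrophages, against -3.21, -3.08 and -2.52 in Ly6Chi-derived macrophages. Abcg1 was thus the higher in all 6 libraries, and the groups did not overlap. The means were -1.66 ± 0.38 in TpMo-derived and -2.94 ± 0.37 in Ly6Chi-derived macrophages (SD, n = 3 each), or 0.317 and 0.131 as linear ratios. The difference of 1.28 had an exact permutation p of 0.1, the smallest possible, and 0.133 after adjustment over 4 ratios.

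The receptor genes did not pass the test. Nr1h3, which encodes LXR alpha (ENSMUSG00000002108.10, chr2:91184061-91202834, minus strand), had 27.7, 31.3 and 48.3 CPM in TpMo-derived macrophages, against 26.8, 25.2 and 27.9 CPM in Ly6Chi-derived macrophages. TpMo-derived replicate 3 stood above the rest, and the lowest TpMo-derived library lay inside the Ly6Chi-derived range. Its log2 fold change was 0.42 with a 95% interval of -0.04 to 0.89 (edgeR adjusted p = 0.253), and it ran between 0.15 and 0.58 with 1 library left out.

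Nr1h2, which encodes LXR beta (ENSMUSG00000060601.13, chr7:44549616-44553951, minus strand), had 96.7, 89.9 and 102 CPM in TpMo-derived macrophages, against 109, 103 and 100.4 CPM in Ly6Chi-derived macrophages. The groups overlapped. The log2 fold change was -0.11 with a 95% interval of -0.32 to 0.10 (edgeR adjusted p = 0.543). Per length, the log2 ratio of Nr1h3 to Nr1h2 was -1.38, -1.10 and -0.67 in TpMo-derived macrophages, against -1.60, -1.61 and -1.43 in Ly6Chi-derived macrophages. Nr1h2 was the more abundant receptor message in every library, and the ratio was higher in each TpMo-derived library than in any Ly6Chi-derived one. The difference of 0.50 had an exact permutation p of 0.1, the smallest possible, and 0.133 after adjustment over 4 ratios.

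Mylip, Lpl and Lpcat3 had smaller estimates than Apoe, Abca1 and Abcg1. Mylip (ENSMUSG00000038175.10, chr13:45389742-45412022, plus strand) had 43.6 CPM, 34.2 CPM and 29.1 CPM in TpMo-derived macrophages, against 21.3, 22.3 and 21.2 CPM in Ly6Chi-derived macrophages. The Ly6Chi-derived libraries were nearly equal, and each TpMo-derived library was above them. Mylip rose by a log2 fold change of 0.72 ± 0.18 (SE, n = 3 each; edgeR adjusted p = 0.0260), or 1.65-fold. The call was lost without TpMo-derived replicate 1 (log2 fold change 0.55, adjusted p = 0.0954) and without any 1 of Ly6Chi-derived replicates 1, 2 and 3 (adjusted p = 0.0927, 0.0846 and 0.0915), over a range of 0.0248 to 0.0954 for all libraries left out in turn.

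Lpl, lipoprotein lipase (ENSMUSG00000015568.16, chr8:68880491-68907448, plus strand), splits triglycerides of lipoproteins and is itself secreted. It had 5511, 7082 and 5941 CPM in TpMo-derived macrophages, against 4347, 4212 and 3425 CPM in Ly6Chi-derived macrophages. It was abundant in all 6 libraries and higher in every TpMo-derived one. The log2 fold change was 0.63 ± 0.10 (SE, n = 3 each; edgeR adjusted p = 0.00335), or 1.55-fold with a 95% interval of 1.32 to 1.81.

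Lpcat3 (ENSMUSG00000004270.13, chr6:124663027-124704418, plus strand), which places polyunsaturated fatty acids into membrane phospholipids, had 74.4, 69.95 and 82.4 CPM in TpMo-derived macrophages, against 62.6, 69.87 and 60.9 CPM in Ly6Chi-derived macrophages. The groups did not overlap, but their nearest libraries were almost equal. Its log2 fold change was 0.23 with a 95% interval of -0.02 to 0.48 (edgeR adjusted p = 0.252). Its end overlaps Emg1 on the opposite strand (chr6:124704085-124712178), and reads on both genes were not counted for either.

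**Figure D3:**
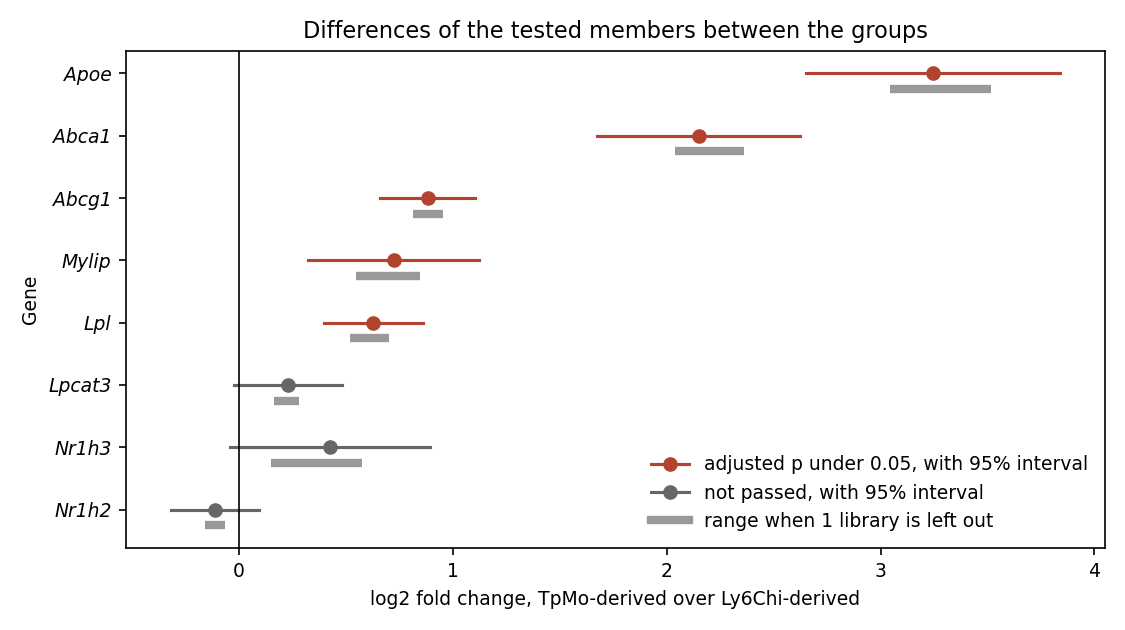
Log2 fold change (TpMo-derived over Ly6Chi-derived) of the 8 tested genes, with 95% intervals as thin lines. Grey bars give the range when 1 library is left out. The intervals of Apoe, Abca1, Abcg1, Mylip and Lpl lie above 0, and those of Lpcat3, Nr1h3 and Nr1h2 include 0.

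Ordered by TPM, the genes stood in nearly the same order in both groups. In TpMo-derived macrophages the order was Apoe, Lpl, Nr1h2, Lpcat3, Abcg1, Nr1h3, Mylip and Abca1. The neighbours Lpcat3 and Abcg1, Abcg1 and Nr1h3, and Nr1h3 and Mylip overlapped between libraries. In Ly6Chi-derived macrophages Lpl, at 1322 ± 188 TPM, and Apoe, at 1314 ± 377 TPM, overlapped at the top, and the rest followed in the order given, with an overlap of Abcg1 and Nr1h3. Abca1 was the lowest of the 8 in both groups, at 22.02 ± 4.27 TPM in TpMo-derived and 5.18 ± 1.15 TPM in Ly6Chi-derived macrophages (SD, n = 3 each).

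Genes whose pattern over the 6 libraries was nearest to that of Apoe were sought among 8880 genes. These averaged 5 CPM or more, and pseudogenes and genes with a clone name for a symbol were left out. The measure was the root mean square difference of log2 CPM after each gene had been centred on its own mean. The 5 nearest were C1qa, a chain of complement C1q, at 0.210, the scavenger receptor Marco at 0.230, Fcrls at 0.328, the interferon-induced Ifit1 at 0.330 and Ms4a4c at 0.342. For Abca1 they were C1qc at 0.103, Nfxl1 at 0.109, C1qb at 0.150, Tnip3 at 0.151 and Aif1 at 0.174. Apoe and Abca1 differed from each other by 0.565, and 23 genes, a count that includes Apoe itself, were nearer to Apoe than Abca1 was. The measure rests on 6 libraries that fall into 2 groups, so it mostly compares the size of the group difference.

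The rest of the pathway was described by 11 lists with 129 distinct genes, of which 92 were tested. Of these, 7 rose, 7 fell and 78 did not pass, or 15.2% called against 12.3% of all genes tested, and their median log2 fold change was -0.10. Counts by other tests in the lists below have their own background. Over all genes, edgeR gave 6.54% higher and 5.79% lower. The shares were 8.14% and 7.93% by DESeq2, and 6.92% and 6.36% by limma-voom.

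Among partners and coregulators of LXR, 1 of 12 tested genes rose and 0 fell by edgeR, with 2 higher and 0 lower by DESeq2 and by limma-voom. The coactivator Ncoa3 had 172 ± 6.94 CPM in TpMo-derived and 129 ± 6.01 CPM in Ly6Chi-derived macrophages (edgeR adjusted p = 0.00786). Rxra, a retinoid X receptor gene, had 28.7 ± 7.08 CPM in TpMo-derived and 37.6 ± 4.88 CPM in Ly6Chi-derived macrophages and did not pass (log2 fold change -0.39, edgeR adjusted p = 0.274). Rxrb, another, did not pass either, with an estimate of the opposite sign (log2 fold change 0.19, edgeR adjusted p = 0.792).

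Of 16 further LXR targets 11 were tested, and they moved in both directions, with 4 higher, 1 lower and a median log2 fold change of -0.02. The phospholipid transfer protein Pltp had 247, 196 and 229 CPM in TpMo-derived macrophages, against 15.1, 10.1 and 8.52 CPM in Ly6Chi-derived macrophages, with a log2 fold change of 4.32 (edgeR adjusted p = 3.53e-06). Cd5l, a secreted scavenger receptor family protein also called AIM, had 552, 549.7 and 515 CPM in TpMo-derived macrophages, against 95.6, 55.0 and 46.3 CPM in Ly6Chi-derived macrophages, with a log2 fold change of 3.04 (adjusted p = 3.00e-05). Both stood far apart between the groups in every library.

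In the opposite direction, the phosphodiesterase Smpdl3a had 369, 396 and 368 CPM in TpMo-derived macrophages, against 746, 748 and 781 CPM in Ly6Chi-derived macrophages. Smpdl3a fell without overlap, the log2 fold change being -1.01 ± 0.06 (SE; edgeR adjusted p = 7.68e-06). The ubiquitin ligase Rnf145 and the desaturase Scd2 rose, at log2 fold changes of 0.85 (adjusted p = 0.00990) and 1.11 (adjusted p = 0.0265). The call of Rnf145 was lost without Ly6Chi-derived replicate 2 (adjusted p up to 0.0529 over libraries left out), and that of Scd2 in 5 of the 6 such fits (up to 0.107). Srebf1, the regulator of fatty acid synthesis, and Fasn did not pass, at log2 fold changes of 0.07 and -0.09, and neither did the phagocytic receptor Mertk at -0.14. Scd1, Abcg5, Abcg8, Cyp7a1 and Apod had no count.

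**Figure D4:**
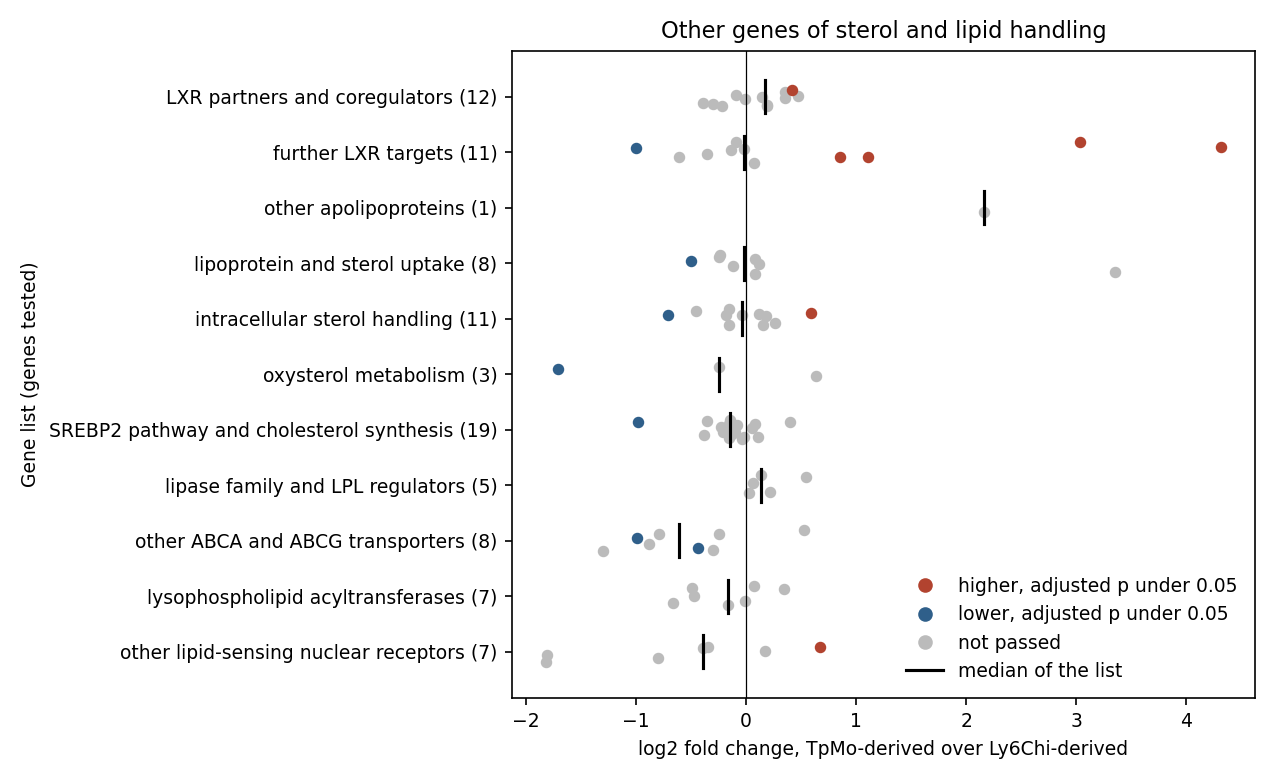
Log2 fold change (TpMo-derived over Ly6Chi-derived) of the tested genes of 11 lists, 1 point a gene, with a black bar at each list's median and the number of tested genes in brackets. The points furthest right are Pltp at 4.32, Vldlr at 3.35 and Cd5l at 3.04, of which Vldlr did not pass.

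Among genes of lipoprotein and sterol uptake, 0 of 8 tested rose and 1 fell by edgeR, and limma-voom gave the same counts, while DESeq2 gave 1 higher and 1 lower. Cd36, a receptor for fatty acids and oxidised lipoproteins, had 2298, 2024 and 2221 CPM in TpMo-derived macrophages, against 3095, 3198 and 2977 CPM in Ly6Chi-derived macrophages, a log2 fold change of -0.50 (edgeR adjusted p = 3.70e-04). The scavenger receptor Msr1 did not pass, with 1017 ± 106 CPM in TpMo-derived and 962 ± 63.0 CPM in Ly6Chi-derived macrophages (adjusted p = 0.640). Vldlr, a lipoprotein receptor and known substrate of Mylip that is named here after its values were seen, did not pass by edgeR. It had 8.23, 1.41 and 1.48 CPM in TpMo-derived macrophages, against 0.654, 0.439 and 0 CPM in Ly6Chi-derived macrophages (log2 fold change 3.35, edgeR adjusted p = 0.0963, DESeq2 adjusted p = 0.0159). Transcript levels do not measure the protein that Mylip acts on.

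Inside the cell, Soat1, the enzyme that esterifies cholesterol for storage, fell, with 634, 554 and 584 CPM in TpMo-derived macrophages, against 912, 992 and 999.7 CPM in Ly6Chi-derived macrophages. This is a log2 fold change of -0.71 ± 0.07 (SE; edgeR adjusted p = 1.14e-04), with no overlap. Stard3, a sterol carrier of late endosomes, rose, with 143 ± 22.9 CPM in TpMo-derived and 94.8 ± 9.36 CPM in Ly6Chi-derived macrophages (adjusted p = 0.0135), a call lost without Ly6Chi-derived replicate 2 (adjusted p = 0.0725, the highest with 1 library left out). The other 9 of 11 tested genes did not pass. They include Plin2, the coat protein of lipid droplets, at 4222 ± 1101 CPM in TpMo-derived and 3798 ± 190.3 CPM in Ly6Chi-derived macrophages, and the lysosomal lipase Lipa, at 2806 ± 94.0 CPM in TpMo-derived and 2884 ± 37.8 CPM in Ly6Chi-derived macrophages.

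Ch25h makes the LXR ligand 25-hydroxycholesterol, and it fell. It had 9.24, 6.68 and 11.5 CPM in TpMo-derived macrophages, against 24.2, 33.0 and 32.6 CPM in Ly6Chi-derived macrophages, and its log2 fold change was -1.71 ± 0.24 (SE; edgeR adjusted p = 0.00132). The highest TpMo-derived library stood well below the lowest Ly6Chi-derived one. Cyp27a1, which makes another side-chain oxysterol, did not pass, at 9.74 ± 3.82 CPM in TpMo-derived and 11.5 ± 1.54 CPM in Ly6Chi-derived macrophages.

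Of 19 genes of SREBP2 and cholesterol synthesis, all tested, 0 rose and 1 fell by edgeR, with 2 lower by DESeq2 and 1 by limma-voom, and with a median log2 fold change of -0.15. The decarboxylase Mvd had 15.1 ± 3.65 CPM in TpMo-derived and 29.9 ± 3.14 CPM in Ly6Chi-derived macrophages (edgeR adjusted p = 0.0119, up to 0.0549 with 1 library left out). Srebf2 and Msmo1, the most abundant of the list, did not pass, at log2 fold changes of 0.05 and -0.13.

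Of 8 tested genes for other transporters of the ABCA and ABCG families, 0 rose and 2 fell by edgeR. There were 0 higher and 4 lower by DESeq2, and 0 higher and 3 lower by limma-voom. Over all genes, 5.79% fell by edgeR, 7.93% by DESeq2 and 6.36% by limma-voom. Abca2 had 18.1 ± 4.22 CPM in TpMo-derived and 36.1 ± 4.68 CPM in Ly6Chi-derived macrophages (edgeR adjusted p = 0.0115, up to 0.0547 with 1 library left out). Abca3, a phospholipid transporter, had 45.9 ± 1.92 CPM in TpMo-derived and 62.1 ± 2.81 CPM in Ly6Chi-derived macrophages (adjusted p = 0.0313), a call lost in all 6 fits with 1 library left out. Abca7 had 25.0 ± 9.17 CPM in TpMo-derived and 43.3 ± 4.16 CPM in Ly6Chi-derived macrophages, without overlap. Its log2 fold change of -0.79 did not pass by edgeR (adjusted p = 0.0580). It passed by DESeq2 (adjusted p = 0.0109) and limma-voom (adjusted p = 0.0247). Pparg was 1 of 7 other nuclear receptor genes tested that rose, at 38.9 ± 5.65 CPM in TpMo-derived and 24.5 ± 4.87 CPM in Ly6Chi-derived macrophages (edgeR adjusted p = 0.0452), and 0 fell. The Pparg call was lost under scaling by library totals alone (adjusted p = 0.0603), against a 1.5-fold change, and in 5 of the 6 fits with 1 library left out (up to 0.155, the sixth at 0.0499).

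By edgeR, 0 of 7 tested lysophospholipid acyltransferase genes, relatives of Lpcat3 by function, passed, with 1 at an unadjusted p under 0.05, 1 lower by DESeq2 and 0 by limma-voom. Of 5 tested genes of lipases and lipoprotein lipase regulators 0 passed by edgeR, DESeq2 or limma-voom, and 0 had an unadjusted edgeR p under 0.05. Of 16 other apolipoprotein genes only Apoa2 had enough counts for a test, at 0.758 ± 0.445 CPM in TpMo-derived and 0.168 ± 0.149 CPM in Ly6Chi-derived macrophages (adjusted p = 0.278).

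All 8 macrophage markers were tested, and their summed level was 34774 to 36644 CPM in TpMo-derived and 29704 to 32311 CPM in Ly6Chi-derived macrophages, with 4 higher and 1 lower. Most of that sum was Lyz2, at 23823 to 26002 CPM in TpMo-derived and 22730.0 to 25112 CPM in Ly6Chi-derived macrophages. Adgre1, which encodes F4/80, had 3370.5 to 4269.7 CPM in TpMo-derived and 1736 to 1818 CPM in Ly6Chi-derived macrophages, and the Fc receptor gene Fcgr1 had 307 to 364 CPM in TpMo-derived and 81.8 to 90.8 CPM in Ly6Chi-derived macrophages. The marker that was lower was the integrin gene Itgam, with 133 to 152 CPM in TpMo-derived and 178 to 182 CPM in Ly6Chi-derived macrophages. Other cell types that make apolipoprotein E or lipoprotein lipase were near the floor. The adipocyte markers Adipoq, Plin1, Cidec and Lep had no count, and the list of 5 summed to 0 in TpMo-derived and 0 to 0.783 CPM in Ly6Chi-derived macrophages. The hepatocyte markers Alb, Apoa1, Serpina1a and Fgb had no count, with a list sum of 0 to 0.405 CPM in TpMo-derived and 0 in Ly6Chi-derived macrophages.

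Some other markers moved with the groups. The erythroid and megakaryocyte list, 6 genes, summed to 116 to 238 CPM in TpMo-derived and 31.0 to 44.9 CPM in Ly6Chi-derived macrophages. Nearly all of it was Pf4, a platelet chemokine. Without Pf4 the sum reached at most 0.331 CPM in TpMo-derived and 0.739 CPM in Ly6Chi-derived macrophages. The megakaryocyte marker Itga2b had 0, 0.0737 and 0 CPM in TpMo-derived macrophages, against 0, 0.739 and 0 CPM in Ly6Chi-derived macrophages. The haemoglobin genes Hbb-bs and Hba-a1 had no count. The T and NK cell list, 6 genes, summed to 2.80 to 9.44 CPM in TpMo-derived and 0.314 to 1.37 CPM in Ly6Chi-derived macrophages. Cd4 was the most abundant, and Cd3e, Cd3g, Cd8a and Ncr1 were at 0. Klrb1c went the other way from Cd4. It had 0 CPM in each TpMo-derived library, and 0.634, 1.37 and 0 CPM in Ly6Chi-derived macrophages. The stroma and endothelium list, 7 genes with 5 at 0, summed to 0.673 to 1.63 CPM in TpMo-derived and 0 to 0.377 CPM in Ly6Chi-derived macrophages. The neutrophil, B cell, dendritic cell, and mast cell and basophil lists stayed at or below 4.33 CPM in sum in every library, and their ranges overlapped between the groups. The part of these genes' sources in the differences above was not tested. In bulk libraries, fewer cells of a type and less RNA per cell cannot be told apart.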

How the data were processed

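The deposited table holds unnormalized counts of reads per gene for 6 libraries. Per the file header, featureCounts 1.6.3 counted reads over exons of GENCODE M22, with no option for pairs, strand, multi-mapped reads or reads on several genes. By its defaults both mates were counted separately, strand was ignored, and multi-mapped or multi-gene reads were dropped. STAR and GRCm38 are named in the submitters' processing notes, with no version for STAR. A pair can thus add 2 counts, near-identical genes lose reads, and antisense reads cannot be told apart. Symbols came from GENCODE M21, which matched 55394 of 55487 identifiers and left 93 unmatched. No count was present in any library for 33984 genes.

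Groups were read from the cell type label, and replicates were numbered in accession order. Genes that passed filterByExpr (minimum count 10, minimum total 15) were scaled by TMM and compared with edgeR 4.0.16 in R 4.3.3, by the robust quasi-likelihood test without covariates, with Benjamini-Hochberg adjustment over 13140 genes and a threshold of 0.05. Standard errors were derived from the F statistic of each fold change. CPM of genes use TMM-adjusted totals, and sums over cell type markers and the floor use raw totals. TPM were computed from the counts and the exon lengths of the deposited table. Ratios within a library used counts plus 0.5 per kb of length. Shares and ratios were compared by exact two-sided permutation tests. The steps were tested on simulated data. Promoter sequences are from a RefSeq table on GRCm38.p6.

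The genes, the lists and the tests were chosen with earlier results of these data known. Every one of the 10 genes was named, and from each list up to 4 changed genes with the smallest p and up to 2 with the highest mean CPM. Of the latter, Med1, Mboat7 and Nr1d2 did not pass and are given without values. Tested neighbours within 100 kb of Apoe and the 5 genes most like Apoe and Abca1 were named too. Rxra, Rxrb, Srebf1, Fasn, Mertk, Scd2, Vldlr and the genes with no count fall outside that rule or were picked after their values had been seen. Some results are not reported here. Alternatives changed the scaling, the test (DESeq2 1.42.0 and limma-voom in limma 3.58.1), the low-count filter, the fold tested against, and the libraries.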

Additional observations from a re-analysis of the deposited data

How the results depend on the processing

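No paired analysis was possible because the labels give no replicate numbers. Apoe, Abca1, Abcg1 and Lpl kept their call and direction under both other scalings, DESeq2, limma-voom, both other filters and with any 1 library left out. Against a 1.5-fold change, 2 of the 10 genes rose, Apoe and Abca1, while Abcg1 (0.88, adjusted p = 0.0556), Mylip (0.72, adjusted p = 0.860) and Lpl (0.63, adjusted p = 1.00) did not pass. That test also left 191 higher and 126 lower genes over the whole table, 2 higher and 2 lower in the pathway lists and 0 higher neighbours of Apoe. DESeq2 gave 1207 higher and 1176 lower genes over the table, against 859 and 761 by edgeR, and 9 higher and 11 lower in the lists, against 7 and 7, and the cause was not tested. With 1 library left out, a smaller fit, 4 to 5 of the 10 genes rose, Mylip ran between 0.55 and 0.85, the table gave 531 to 750 higher and 445 to 742 lower genes, the lists 3 to 7 higher and 4 to 8 lower, and the neighbours 0 to 1 higher. Counts of higher genes in the table fell most without TpMo-derived replicate 3 (564) and Ly6Chi-derived replicate 2 (531), and of lower genes without Ly6Chi-derived replicates 1 (474), 2 (445) and 3 (471). The lists lost most higher genes without Ly6Chi-derived replicate 2 and most lower genes without replicates 1 and 3 of that group. Scaling by library totals alone moved the median log2 fold change of all genes to -0.043, with 737 higher and 902 lower genes.

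The ratios of Apoe to Apoc1 and to Apoc2 rest on counts of 0 to 4, so the pseudocount sets their size. With pseudocounts of 1, 0.5 and 0.1 the difference was 1.86, 1.33 and -0.090 for Apoc1 and 4.16, 4.62 and 5.96 for Apoc2. At most 3 mismatches gave 1 gene with the LXR element, in place of 0. No gene that changed sign had passed the test. With 1 library left out, Cyp27a1 ran between -0.50 and 0.043, Lmf1 between -0.10 and 0.32, Lpcat2 between -0.15 and 0.064, Nectin2 between -0.53 and 0.0055, Srebf1 between -0.047 and 0.19, and Srebf2 between -0.045 and 0.13. Sel1l stood at -0.025 with library totals alone. Apoa2, Gm26890 and Vldlr gave no value under the filter of 5 CPM in 3 libraries. With 1 library left out, the exact tests cannot give a p below 0.2.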
